A study of Homo sapiens with 12 samples.

Results

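Soluble guanylate cyclase and the enzymes that act on its product, cyclic GMP, were followed in cells of the human glioma cell line U-87 MG. The genes were the 3 cyclase subunits GUCY1A1, GUCY1A2 and GUCY1B1, the cGMP-dependent kinases PRKG1 and PRKG2, and the phosphodiesterases PDE5A, PDE1A and PDE1C. Of these 8 genes, 7 had a probe set that named them alone, 30 probe sets in all, out of 19775 genes measured that way; PDE1A was not analysed here. The brightest probe set of a gene stood for it, and every level below is a log2 expression level on an Affymetrix array.

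The cells carried a stably transfected hairpin RNA against p105 (shp105), the NFKB1 product from which the NF-kB subunit p50 is cut, or a control hairpin (shControl), and took temozolomide (TMZ), an alkylating drug used against glioma, at 100 uM or its vehicle DMSO. Treatment lasted 16 h, and each of the 4 groups (shControl in DMSO, shControl in TMZ, shp105 in DMSO, shp105 in TMZ) had 3 arrays of biological replicates. The labels do not say whether replicates of a line came from separate transfections or whether a line was a clone or a pool, so errors and p-values cover only the spread between these samples. The genes were chosen by results of these same arrays, in which GUCY1B1 had the largest decrease between the lines, so the line differences of the 8 genes are given as a description, without a test. The TMZ responses had no part in that choice and were tested.

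In cells, nitric oxide binds the heme of soluble guanylate cyclase, a heterodimer of an alpha and a beta subunit, and the enzyme then makes cGMP from GTP. The beta subunit encoded by GUCY1B1 carries the heme and pairs with either alpha subunit, encoded by GUCY1A1 or GUCY1A2. Cyclic GMP activates the kinases PRKG1 and PRKG2 and is broken down by phosphodiesterases, of which PDE5A is specific for cGMP and PDE1A and PDE1C are calcium- and calmodulin-dependent and split both cAMP and cGMP.

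Before the members, the arrays themselves were checked. Median levels of the 12 arrays lay between 5.036 and 5.085, and arrays of a group correlated at 0.997 to 0.998 across genes, each by its brightest probe set. The 27 control probe sets for sequences absent from human cells read 2.331 to 4.303, and a probe set whose arrays all lie in that range is called within background here. NFKB1, the targeted gene, averaged 7.32 ± 0.09 (SD, n = 3) in shControl cells and 7.20 ± 0.06 in shp105 cells in DMSO, a difference that did not pass limma's test (log2 difference -0.12, adjusted p = 0.26). Between the lines in TMZ it differed by -0.25, shp105 minus shControl (SE 0.07, adjusted p = 0.0204). In DMSO the transcript of the targeted gene thus did not differ past the threshold, and "shp105" below names the label. Of the markers of glia and glioma, VIM (14.7 to 14.8) and CD44 (12.6 to 13.0) were far above background while S100B lay within it on all arrays. NES (4.45 to 5.77) and GFAP (4.94 to 5.36) were dim, not far above the control range. CD44 was lower in shp105 cells in DMSO (-0.25, adjusted p = 0.00253), and NES gave 0.61 (adjusted p = 0.0582). For the smooth muscle and pericyte lineage, in which soluble guanylate cyclase is abundant, ACTA2 read 8.2 to 9.2 and RGS5 6.9 to 7.7, and these 2 of the 6 markers on that list were lower in shp105 cells in DMSO, at -0.31 (adjusted p = 0.00316) and -0.53 (adjusted p = 0.000828). The rest of that list did not pass in DMSO: MYH11 gave -0.14, DES -0.08, PDGFRB -0.10 and CNN1, in the other direction, 0.20 (adjusted p = 0.395 to 0.734). Of 4 leukocyte markers PTPRC, CD14 and LYZ lay within background and CD3E read 5.51 to 6.03. Of 4 endothelial markers CDH5 lay within background, PECAM1 read 5.70 to 6.14 and VWF 4.21 to 4.94, and KDR read 4.10 to 4.80 and was lower in shp105 cells in DMSO (-0.56, adjusted p = 0.000268). Of 3 epithelial markers CDH1 lay within background, EPCAM was lower (-0.39, adjusted p = 0.0299) and KRT18 higher (0.33, adjusted p = 0.0247) in DMSO. The part of these marker differences in the results below was not tested.

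GUCY1B1 lies on chr4:155759021-155807811 and GUCY1A1 beside it on chr4:155666848-155737059, separated by 21961 bases; GUCY1A2 lies on chr11:106674019-107018476 (GRCh38.p14). Their start regions are shown because the line differences of the subunit genes are the main observation here. Each is 250 bases before and 50 after a start site listed by RefSeq (GRCh38.p14), in the direction of transcription, at chr4:155758771-155759070 (+) for GUCY1B1, chr4:155666598-155666897 (+) for the first of the start sites of GUCY1A1 and chr11:107018427-107018726 (-) for GUCY1A2. Capitals mark matches on either strand to the GC box GGGCGG or to CCAAT.
GUCY1B1: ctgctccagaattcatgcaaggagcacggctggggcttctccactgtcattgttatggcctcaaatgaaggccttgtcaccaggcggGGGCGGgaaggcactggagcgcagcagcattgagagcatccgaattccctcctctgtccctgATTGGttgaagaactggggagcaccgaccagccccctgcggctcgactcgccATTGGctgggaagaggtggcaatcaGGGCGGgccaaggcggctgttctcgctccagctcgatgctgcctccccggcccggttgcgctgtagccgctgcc
GUCY1A1: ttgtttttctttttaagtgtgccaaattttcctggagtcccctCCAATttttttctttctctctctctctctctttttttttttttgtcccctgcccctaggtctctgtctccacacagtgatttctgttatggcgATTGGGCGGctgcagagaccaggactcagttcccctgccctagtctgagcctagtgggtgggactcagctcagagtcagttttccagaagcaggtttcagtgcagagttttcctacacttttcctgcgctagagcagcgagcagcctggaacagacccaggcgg
GUCY1A2: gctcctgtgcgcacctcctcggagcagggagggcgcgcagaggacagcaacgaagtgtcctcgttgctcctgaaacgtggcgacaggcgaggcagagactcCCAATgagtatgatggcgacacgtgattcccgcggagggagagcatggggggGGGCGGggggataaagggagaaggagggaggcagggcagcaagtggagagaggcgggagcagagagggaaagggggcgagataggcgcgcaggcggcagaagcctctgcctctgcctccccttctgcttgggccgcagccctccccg
The GUCY1B1 window held 2 GC boxes and 2 CCAAT matches, the latter on the minus strand. In the GUCY1A1 window there were 1 GC box and 2 CCAAT matches, of which one overlaps the GC box, and GUCY1A2 had 1 of each. Of all 35116 promoter windows of this length, 45% held a GC box and 34.6% a CCAAT match. None of the 3 windows matched TATAAA (11.5% of all windows), TGANTCA, the AP-1 site (7.71%), or the kappaB consensus (5.91%), which says only that those letters are not in these windows. GC content was 63.0% with 17 CpG for GUCY1B1, 49.7% with 5 CpG for GUCY1A1 and 66.7% with 21 CpG for GUCY1A2, against medians of 58.7% and 14 over all windows. A second start site of GUCY1A1, not printed, had 72.0% GC with 29 CpG and no GC box.

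The beta subunit transcript was high in shControl cells and at background in shp105 cells. In shControl cells GUCY1B1 read 8.54, 8.54 and 8.59 in DMSO and 8.49, 8.58 and 8.65 in TMZ. In shp105 cells it read 3.31, 3.09 and 3.53 in DMSO and 3.43, 3.37 and 3.18 in TMZ. All 6 shp105 arrays were within the range of the absent-sequence controls and all 6 shControl arrays were far above it, with no overlap. The difference, shp105 minus shControl, was -5.25 in DMSO (SE 0.10) and -5.24 in TMZ (SE 0.10), or 37.9-fold by level in both. Because the lower levels lie at background, that fold depends on where background lies. It was the lowest of all 19775 genes in both comparisons, which is the property by which it was chosen.

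A dimmer probe set of the same gene moved the same way over a smaller span. It read 6.10, 5.61 and 5.83 in shControl cells in DMSO and 5.92, 6.14 and 6.08 in TMZ, against 3.68, 3.22 and 3.30 and 3.69, 3.48 and 3.79 in shp105 cells. Here too all shp105 arrays lay within background and the lines did not overlap, and the difference was -2.45 in DMSO (SE 0.14) and -2.40 in TMZ (SE 0.14). Averaging both probe sets gave -3.85 in DMSO and -3.82 in TMZ.

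**Figure D1:**
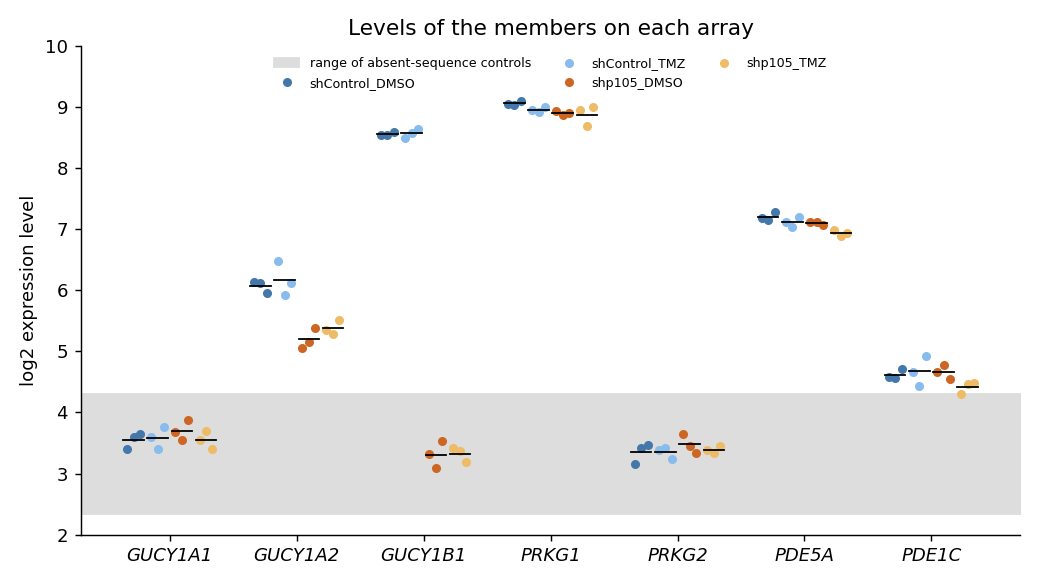
Log2 expression level of the 7 measured genes on each of the 12 arrays (points, 3 per group, colours by group; black bars are group means), with the range of the 27 absent-sequence controls shaded. GUCY1B1 falls from about 8.5 in both shControl groups into the shaded band in both shp105 groups, GUCY1A2 is lower in shp105 groups but above the band, and GUCY1A1 and PRKG2 lie in the band on every array.

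GUCY1A2, the alpha-2 subunit, was lower in shp105 cells as well, but by its brightest probe set stayed above background. Its brightest probe set read 6.14, 6.11 and 5.96 in shControl cells in DMSO and 6.48, 5.92 and 6.12 in TMZ. The shp105 arrays read 5.06, 5.15 and 5.39 in DMSO and 5.35, 5.28 and 5.52 in TMZ. The lines did not overlap under either treatment, and the differences were -0.87 in DMSO (SE 0.13, 1.83-fold) and -0.79 in TMZ (SE 0.13, 1.73-fold). A different probe set of the gene gave the widest gap, -1.29 in DMSO (SE 0.11) and -1.21 in TMZ (SE 0.11). The probe sets read 1 gene on the same arrays, so they are not separate samples. All 6 probe sets were lower in both treatments, with differences of -1.29 to -0.26 in DMSO and -1.21 to -0.11 in TMZ, and 2 of the 6 lay within background. A further one lay in the control range in shp105 cells only, at 3.90 to 4.30 against 4.41 to 4.75 in shControl cells.

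GUCY1A1, the alpha-1 subunit, showed no level above background in either line. Its 4 probe sets read 2.64 to 3.88 over all arrays. The brightest averaged 3.55 ± 0.13 (SD, n = 3) in shControl and 3.70 ± 0.17 in shp105 cells in DMSO, and 3.59 ± 0.18 and 3.55 ± 0.14 in TMZ. In shControl cells, then, GUCY1B1 and GUCY1A2 were the cyclase subunits read above background, and in shp105 cells GUCY1A2 was. Each array measured RNA of a whole culture, so fewer cells with a transcript and less of it per cell cannot be told apart.

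Of the kinases, PRKG1, whose product phosphorylates smooth muscle and cytoskeletal proteins, was bright in every group. It read 9.04, 9.04 and 9.10 in shControl cells in DMSO and 8.95, 8.92 and 9.01 in TMZ, against 8.93, 8.87 and 8.91 and 8.94, 8.69 and 9.00 in shp105 cells. The lines were within 0.16 of each other in DMSO (difference -0.16, SE 0.07, no overlap) and within 0.08 in TMZ (-0.08, SE 0.07, overlapping). The other 2 probe sets of the gene, one of them within background, were both higher in DMSO (0.04 and 0.19), opposite to the brightest. PRKG2, the membrane-anchored kinase, read 3.16 to 3.65 and lay within background on all arrays.

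Of the phosphodiesterases, PDE5A was read at 7.18, 7.15 and 7.28 in shControl cells in DMSO and 7.11, 7.04 and 7.20 in TMZ. In shp105 cells it read 7.11, 7.11 and 7.07 in DMSO and 6.99, 6.88 and 6.93 in TMZ. The shp105 arrays were lower without overlap under both treatments, by a small step: -0.10 in DMSO (SE 0.06) and -0.18 in TMZ (SE 0.06). Its 8 probe sets split into 4 lower and 4 higher under each treatment, 4 lay within background, and their mean gave 0.0066 in place of -0.18 in TMZ. PDE1C read 4.31 to 4.92, just above the control range, with differences of 0.05 in DMSO (SE 0.11) and -0.26 in TMZ (SE 0.11) and overlapping groups, and 4 of its 6 probe sets lay within background.

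**Figure D2:**
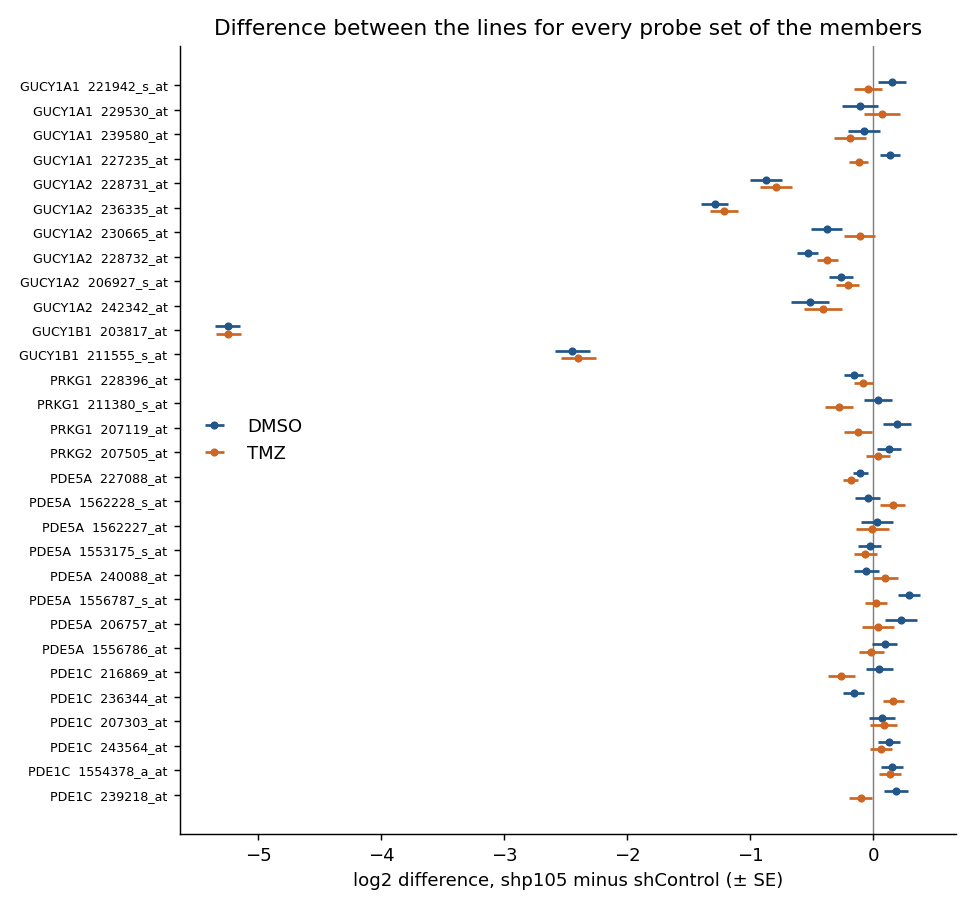
Log2 difference, shp105 minus shControl, for each of the 30 probe sets of the 7 genes (points, with the standard error of the fit; blue in DMSO, orange in TMZ). Both GUCY1B1 probe sets lie far to the left, at -5.25 and -2.45 in DMSO, all 6 GUCY1A2 probe sets lie below 0, and the probe sets of the other genes lie close to 0 on either side.

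Among the 7 genes, those past limma's threshold (adjusted p under 0.05 over all genes) between the lines in DMSO were 0 higher and 2 lower (GUCY1B1 and GUCY1A2), beside 8.34% higher and 11.6% lower of all genes. In TMZ they were 0 higher and 3 lower (with PDE5A), beside 10.1% and 11.0%. PDE5A was past the threshold in 6 of 22 alternative fits. Nothing is read from these counts, since the genes were chosen by these comparisons. The median difference of the 7 genes was -0.104 in DMSO and -0.182 in TMZ, and of all genes -0.0147 and -0.00781.

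Some technical measures differed between the lines. The 18 hybridization spike-in probe sets averaged 10.63 ± 0.05 (SD, n = 3) in shControl DMSO arrays, 10.95 ± 0.09 in shControl TMZ, 11.13 ± 0.10 in shp105 DMSO and 11.32 ± 0.13 in shp105 TMZ. The 3' minus 5' difference of GAPDH, a measure of RNA integrity, averaged 0.252, 0.301, 0.361 and 0.397 in the same order, and that of ACTB 3.02, 2.85, 3.07 and 3.06. Under each treatment every shp105 array had a higher spike-in level than every shControl array, so spike-in level and line cannot be told apart. In shControl cells the TMZ arrays (10.84 to 11.01) also all lay above the DMSO arrays (10.57 to 10.67). Spike-in level and TMZ thus cannot be told apart there either, while in shp105 cells the TMZ and DMSO arrays overlapped. In a fit with a spike-in covariate GUCY1B1 differed by -5.77 in DMSO and -5.63 in TMZ. GUCY1A2 gave -0.39 (SE 0.29) and -0.43 (SE 0.23) in that fit. These gaps were smaller, with wider errors, than the -0.87 and -0.79 (SE 0.13 for both) without the covariate. The part of RNA integrity in these differences was not tested.

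The question the series puts is how the lines answer TMZ, and for these genes no response passed the test in either line. GUCY1B1 moved by 0.01 in shControl cells (95% interval -0.20 to 0.23, adjusted p = 0.978) and by 0.02 in shp105 cells (-0.20 to 0.23, adjusted p = 0.952). The same 7 genes gave 0 called in shControl cells, beside 0.253% higher and 0.116% lower of all genes, and 0 in shp105 cells, beside 0.647% and 0.217%. A count of 0 of 7 is near that background and is no result about these genes. In shControl cells, where GUCY1B1 was well above background, the interval bounds its response for this probe set and this fit only. The dimmer probe set of the gene gave 0.20 there, and the fit with the spike-in covariate gave -0.32 (SE 0.13). In shp105 cells all GUCY1B1 arrays lay within background, so neither its response there nor its difference of responses limits a change of the transcript.

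For GUCY1A2 the response was 0.10 in shControl cells (-0.19 to 0.39, adjusted p = 0.833) and 0.18 in shp105 cells (-0.11 to 0.47, adjusted p = 0.532). GUCY1A1, at background, gave 0.04 (adjusted p = 0.942) and -0.16 (adjusted p = 0.536). The kinases gave -0.10 (PRKG1, adjusted p = 0.655) and -0.003 (PRKG2, adjusted p = 0.995) in shControl cells. In shp105 cells they gave -0.03 (PRKG1, adjusted p = 0.898) and -0.09 (PRKG2, adjusted p = 0.701).

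The brightest probe sets of both phosphodiesterases were lower in TMZ than in DMSO in shp105 cells without overlap of the 3 and 3 arrays, but not past the threshold. PDE5A differed by -0.16 (SE 0.06, 95% interval -0.29 to -0.04, adjusted p = 0.194) and PDE1C by -0.25 (SE 0.11, -0.49 to -0.01, adjusted p = 0.289). Other probe sets differed: of the 6 of PDE1C, 3 were higher in TMZ, 2 of them without overlap (0.21 and 0.15), and the mean over the 6 was 0.019. Of the 8 of PDE5A, 4 were higher. In shControl cells PDE5A gave -0.09 (adjusted p = 0.637) and PDE1C 0.06 (adjusted p = 0.896), with overlapping arrays.

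**Figure D3:**
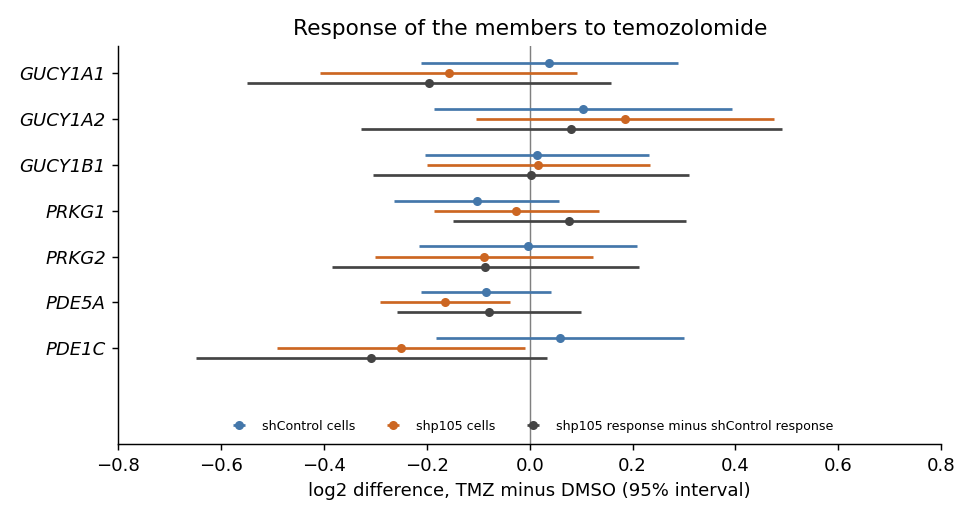
Log2 difference, TMZ minus DMSO, of the 7 genes in shControl cells (blue) and shp105 cells (orange), and the difference of the responses (grey), with 95% intervals of the fit. Nearly all intervals cross 0; those of PDE5A and PDE1C in shp105 cells end just below it, at -0.04 and -0.01.

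The responses of both lines were also compared with each other, and none of the 7 genes passed that test. The difference of responses was 0.0026 for GUCY1B1 (95% interval -0.31 to 0.31, adjusted p = 0.998), 0.08 for GUCY1A2 (adjusted p = 0.969) and -0.31 for PDE1C (-0.65 to 0.03, adjusted p = 0.794). No gene of the 19775 was called in this comparison (0% higher, 0% lower), while 1266 had an unadjusted p under 0.05. With eBayes trend and robust fitting the number called was 12, and 8 with dim genes left out. These unadjusted intervals differed by gene, from -0.26 to 0.10 for PDE5A to -0.33 to 0.49 for GUCY1A2. They do not give the size needed for a call after adjustment over all genes. In the wider list below, a difference of -0.57 (PLN) was not called. A modest unequal response could thus be missed at 3 arrays per group.

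A wider list of 49 genes of the pathway was then read, chosen by role, with 46 measured and 13 of these within background on all arrays (NPR2, GUCA1B and CNGA2 were not analysed here). Between the lines in DMSO 3 were called higher, 4 lower and 39 not, and in TMZ 2 higher, 6 lower and 38 not. These shares lie at or below the 8.34% to 11.6% of all genes called in a direction, except for the 6 lower in TMZ, and the list's median differences, -0.0373 and 0.0144, are close to 0.

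In nitric oxide synthesis and handling, 2 of 8 genes were called, both higher in shp105 cells under both treatments. NOS3, the endothelial nitric oxide synthase, read 4.57, 4.59 and 4.74 in shControl cells and 5.47, 5.19 and 5.21 in shp105 cells in DMSO. In TMZ it read 4.47, 4.57 and 4.53 against 5.01, 5.76 and 5.54. The groups did not overlap, and it rose by 0.66 in DMSO (SE 0.15, adjusted p = 0.00899) and 0.91 in TMZ (SE 0.15, adjusted p = 0.00103). DDAH1, which breaks down an inhibitor of nitric oxide synthases, rose by 0.35 and 0.44 (adjusted p = 0.000253 and 4.60e-05), with 3 of its 4 probe sets in that direction in DMSO and 2 in TMZ. NOS1 gave 0.09 and -0.12 (adjusted p = 0.706 and 0.562) and NOS2 0.14 and 0.20 (adjusted p = 0.481 and 0.261).

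Of 11 measured membrane cyclase genes, their peptides and receptors, NPR3, the clearance receptor for natriuretic peptides, was called higher in DMSO (0.47, adjusted p = 0.00975). It read 0.32 in TMZ (adjusted p = 0.0615), and 1 of its 3 probe sets went that way in DMSO. NPR1, the receptor cyclase for atrial natriuretic peptide, gave -0.03 and 0.03 (adjusted p = 0.861 and 0.864).

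Among 13 other phosphodiesterases, 2 were called lower under both treatments. PDE9A, which is specific for cGMP, read 4.88, 5.20 and 5.11 in shControl cells and 4.24, 4.05 and 3.64 in shp105 cells in DMSO, and 4.75, 5.49 and 4.92 against 3.97, 3.89 and 3.77 in TMZ. The shp105 arrays fell into the control range, and the difference was -1.08 in DMSO (SE 0.19, adjusted p = 0.00134) and -1.18 in TMZ (adjusted p = 0.000729), with 2 of its 2 probe sets lower in DMSO and 1 in TMZ. PDE6D, a prenyl-binding subunit of the photoreceptor enzyme that also carries lipidated proteins elsewhere, differed by -0.42 in DMSO and -0.40 in TMZ (adjusted p = 0.000302 and 0.000443). Of its 3 probe sets, 2 were lower under each treatment.

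Of 5 cyclic nucleotide-gated channel genes, CNGA3, a subunit of the cone photoreceptor channel, was the one called, and it had the widest gap of the list. It read 6.61, 6.45 and 6.48 in shControl cells and 5.07, 5.04 and 5.18 in shp105 cells in DMSO. In TMZ it read 6.38, 6.52 and 6.41 against 5.12, 4.80 and 4.91. No array overlapped and none lay within background, and its single probe set fell by 1.41 in DMSO (SE 0.08, adjusted p = 2.67e-07) and gave -1.49 in TMZ (adjusted p = 1.89e-07).

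Among 9 kinase targets and export genes, RGS2, a regulator of G-protein signalling that PRKG1 phosphorylates in smooth muscle, differed by -0.30 between the lines in DMSO and by -0.50 in TMZ (adjusted p = 0.00302 and 7.51e-05). PLN, the calcium pump regulator phospholamban, differed by -0.48 between the lines in TMZ (adjusted p = 0.000844), with 2 of its 3 probe sets lower. It gave 0.09 in DMSO (adjusted p = 0.507), and its levels lay within background. VASP is an actin regulator whose phosphorylation, which these arrays do not read, is used as a readout of PRKG1 activity. Its transcript differed by 0.00 between the lines in DMSO (adjusted p = 0.988) and by -0.24 in TMZ (adjusted p = 0.00339).

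**Figure D4:**
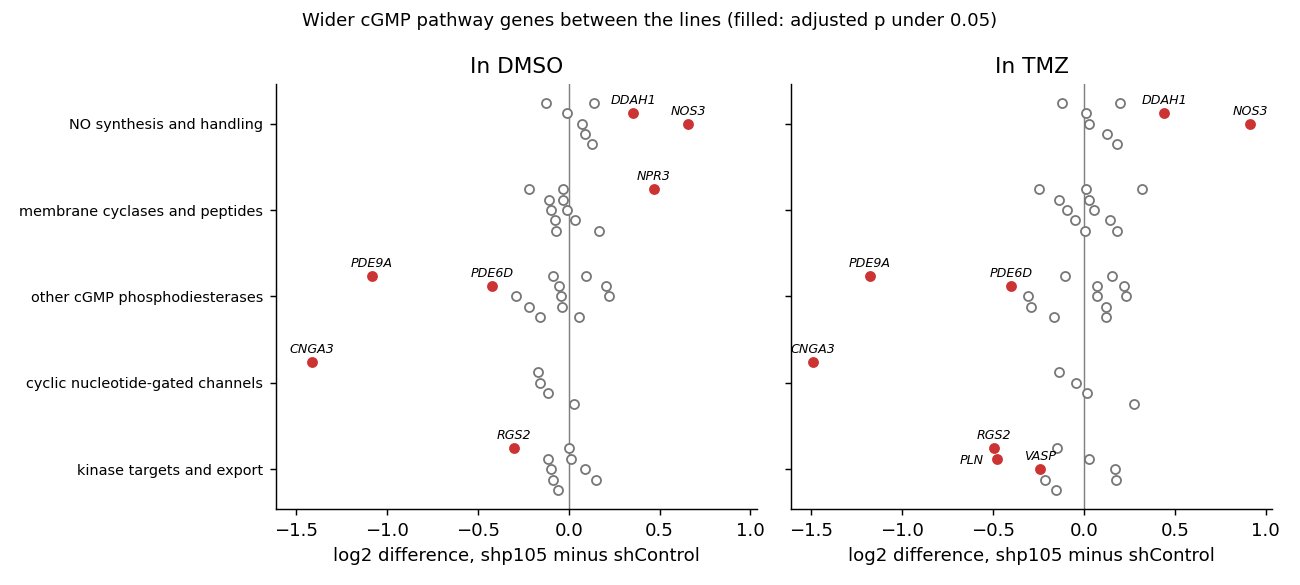
Log2 difference, shp105 minus shControl, of the 46 measured pathway genes by role in DMSO (left) and TMZ (right); each point is 1 gene, filled where limma's adjusted p was under 0.05. CNGA3 and PDE9A lie lowest, at -1.41 and -1.08 in DMSO, and NOS3 highest, at 0.66 in DMSO and 0.91 in TMZ, while most genes lie near 0.

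Spike-in level went with the line, so a fit with it as a covariate cannot tell them apart. Once spike-in level entered, 6 of the 7 calls in DMSO (all but CNGA3) and 4 of the 8 in TMZ (NOS3, DDAH1, PDE6D and VASP) no longer passed. Their signs were unchanged and most differences were as large or larger, in DMSO 0.78 for NOS3, -1.47 for PDE9A, -0.43 for RGS2 and -0.46 for PDE6D, while DDAH1 gave 0.22 and NPR3 0.42. Averaging probe sets per gene, DDAH1 and NPR3 in DMSO and DDAH1, PDE6D and PLN in TMZ did not pass.

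To TMZ the wider list responded with 2 of 46 genes in shp105 cells, 1 higher and 1 lower, beside 0.647% and 0.217% of all genes, and 0 in shControl cells, beside 0.253% and 0.116%. VASP read 8.29, 8.29 and 8.30 in shp105 cells in DMSO and 7.95, 7.97 and 7.99 in TMZ, and fell by 0.32 (SE 0.05, adjusted p = 0.0113). In shControl cells it gave -0.08 (adjusted p = 0.577), and the difference of the responses, -0.24, did not pass (SE 0.07, adjusted p = 0.606). The call was lost without shp105 DMSO replicate 1 (adjusted p = 0.0501) or replicate 2 (0.0507), with the spike-in covariate (0.128) and with only the compared groups fitted (0.156), while the difference stayed between -0.32 and -0.33 in these 4 fits. PDE6H, a cone photoreceptor subunit, rose by 0.45 (SE 0.08, adjusted p = 0.0247) but its levels, 2.72 to 3.32, lay within background. It was lost in 7 of 21 alternatives, among them the fits without shp105 DMSO replicate 1 (adjusted p = 0.0906) or 3 (0.0901) and without shp105 TMZ replicate 2 (0.0649) or 3 (0.0799).

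The neighbours of GUCY1A1 and GUCY1B1 on chromosome 4 were read because the pair lies side by side and 1 of the 2 differed so widely. The 3 nearest measured protein-coding genes on each side were taken. MAP9, a microtubule-associated protein gene at -416.4 kb from the start of GUCY1B1, differed by -0.48 in DMSO (SE 0.10) and -0.32 in TMZ (SE 0.10). CTSO, a cysteine protease gene at 165 kb on the far side, differed by -0.48 in DMSO (SE 0.08) and -0.73 in TMZ (SE 0.08). RBM46, NPY2R, ASIC5 and TDO2 gave -0.18 to 0.02 in DMSO and -0.11 to 0.14 in TMZ. RBM46 (2.29 to 2.75) and ASIC5 (2.87 to 3.20) lay at background in both lines and NPY2R (3.87 to 4.59) near it, so these 3 could not show a decrease. Neither could GUCY1A1 (3.40 to 3.88), which lay within background on all arrays.

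**Figure D5:**
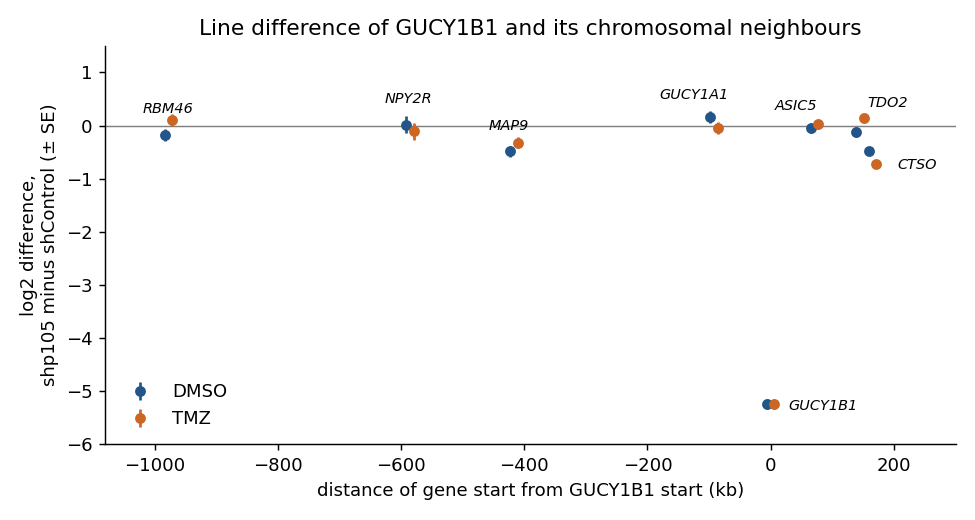
Log2 difference, shp105 minus shControl (points, with standard error; blue in DMSO, orange in TMZ, drawn slightly apart), of GUCY1B1 and its chromosomal neighbours by the distance of their start from that of GUCY1B1. GUCY1B1 lies at -5.25, its neighbour GUCY1A1, at background in both lines, near 0, and MAP9 and CTSO at -0.48 in DMSO.

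The genes whose level over the 12 arrays followed GUCY1B1 most closely were CXCL14 (Pearson r 0.9993), a chemokine gene, MAGEC1 (0.9984), a cancer-testis antigen gene, HOTAIR (0.9981), a long noncoding RNA gene of the HOXC cluster, ASS1 (0.9979), which makes argininosuccinate in arginine synthesis, and CEP15 (0.9977). All 5 were lower in shp105 than in shControl cells. CXCL14 averaged 8.14 and 8.18 against 4.40 and 4.47, a difference of -3.73 in DMSO (SE 0.08), HOTAIR differed by -4.30 and ASS1 by -3.93. The arrays share the 2 lines, and any gene with a wide gap between them takes a high r: 62 genes reached 0.99 and 1015 reached 0.9. Of the other measured members, GUCY1A2 reached 0.926, PDE5A 0.659, PRKG1 0.588, PDE1C 0.312, GUCY1A1 -0.173 and PRKG2 -0.368.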

How the data were processed

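RNA of 12 samples was measured on Affymetrix arrays. The deposited values are log2 levels per probe set, made by the authors with RMA and Affymetrix Power Tools, per the submitters' processing notes; no version, genome build, probe annotation or filter is stated in the labels used here. Of 54675 probe sets, 41097 had exactly 1 gene symbol, 1801 several and 11777 none; 54 Entrez identifiers were not found in RefSeq (GRCh38.p14) and kept the array's symbol. The brightest single-symbol probe set stood for each of 19775 genes, with no filter on dim ones.

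limma (lmFit, eBayes) fitted the 4 group means over all arrays. Tests were 2-sided, and p was adjusted by Benjamini-Hochberg across all 19775 genes and called under 0.05; the script was tested on simulated data. Intervals are 95% intervals of that fit. No depth applies to arrays, and their number limits the precision.

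The members, lists and tests were chosen with earlier results of these data known. Named were all members, NFKB1, up to 6 called pathway genes per comparison by size with NOS1, NOS2, NOS3, NPR1, NPR2 and VASP, the 6 neighbours and the 5 genes most like GUCY1B1; RGS2 in DMSO and PDE6D in TMZ were called but smaller than the 6, and were added after their values were seen. Array controls and markers are named as checks. Promoters came from RefSeq. Alternatives were another gene summary, a filter on dim genes, scaling, array weights, eBayes trend and robust fitting, fewer groups, a replicate block, a spike-in covariate and leaving out each array. R 4.3.3, limma 3.58.1, data.table (1.17.8), Python 3.11.15 and matplotlib 3.10.9 were used.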

Additional observations from a re-analysis of the deposited data

Results flagged for a closer look

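PLN, phospholamban, moved in opposite directions under TMZ in the lines, with no overlap of arrays in either. It was 0.3758 higher in TMZ than in DMSO in shControl cells (adjusted p = 0.0768) and differed by -0.1915 in shp105 cells (adjusted p = 0.248). limma's estimate for the gap between these responses was -0.57 (SE 0.11, adjusted p = 0.331), so it did not pass the threshold. All levels, 3.06 to 3.68, lie within the range of the absent-sequence controls. This pattern was searched for over the 30 probe sets of the members and the 46 measured pathway genes. Its share over all genes was not counted.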

How the results depend on the processing

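No member's TMZ response or difference of responses was called under any of 440 alternative values; 33 had the other sign. GUCY1B1 between the lines was -3.846 in DMSO and -3.819 in TMZ with the mean of probe sets and -5.767 and -5.633 with the spike-in covariate. With genes below the median level left out, GUCY1B1, GUCY1A1, GUCY1A2, PRKG2 and PDE1C have no value.

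Genes called between the lines numbered 3937 in DMSO and 4166 in TMZ, and 523 and 1045 with the spike-in covariate. In TMZ against DMSO, genes called in shControl cells were 73, and 149 with array weights, 358 with trend and robust fitting, 37 with each probe set on its own, 291 without dim genes, 45 with the mean of probe sets, 43 with median centring, 19 with only the compared groups, 0 with the spike-in covariate, and 16 (without shControl DMSO replicate 2) to 76 when an array was left out. In shp105 cells they were 171, and 80 higher with 25 lower under array weights (about 1.1e+02 in all), 937 with trend and robust fitting, 67 with each probe set on its own, 904 without dim genes, 2 with only the compared groups, 13 with the spike-in covariate, and 49 (without shp105 DMSO replicate 2) to 188 without an array. For the difference of responses they were 0, and 12 with trend and robust fitting and 8 without dim genes.

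Of the pathway list, 3 were called between the lines in DMSO without dim genes and 1 with the spike-in covariate, against 7; in TMZ 5 with either the mean of probe sets or the spike-in covariate, against 8. Its TMZ calls in shControl cells were 2 with trend and robust fitting and 1 without dim genes, against 0; in shp105 cells 1 with each probe set, without dim genes, with the spike-in covariate and with the replicate block, 0 with only the compared groups, and 0 (without shp105 DMSO replicate 1) to 2 without an array, against 2.

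The labels give a replicate number but do not say whether same-numbered samples were handled together. Same-numbered samples of different groups correlated in their deviations at -0.142 to 0.122 (18 pairs, median 0.0192), others at -0.202 to 0.26 (36 pairs, median -0.0024). Whether a number marks a shared batch was not tested. With the replicate block 30 genes were called in shControl and 84 in shp105 cells under TMZ.

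Member values that changed sign, none past the threshold after the change, were the following. In DMSO between the lines, GUCY1A1 gave -0.094 with the spike-in covariate, and PRKG1 0.026 and PDE5A 0.052 with the mean of probe sets. In TMZ between the lines, PDE1C gave 0.016 and PDE5A 0.0066 (called at -0.18 by its brightest probe set) with the mean of probe sets, and PRKG1 0.013 without shp105 TMZ replicate 2. Another 4 line differences turned to between -0.014 and 0.046 when 1 array was left out. For the TMZ responses the values were, with array weights, GUCY1B1 -0.0049 (shControl), -0.0060 (shp105) and -0.0011 (difference of responses), PRKG1 0.0016 (shp105); with the mean of probe sets, GUCY1A2 -0.046 and PRKG1 0.027 (shControl), PDE1C 0.019 (shp105), PRKG1 -0.19 (difference). With the spike-in covariate they were GUCY1A1 -0.12, GUCY1B1 -0.32 and PRKG2 0.072 (shControl), GUCY1B1 -0.19 (shp105) and GUCY1A2 -0.040 (difference). Leaving out single arrays gave, in shControl cells, GUCY1A1 -0.050 to 0.13, GUCY1A2 -0.052 to 0.23, GUCY1B1 -0.023 to 0.056, PRKG2 -0.096 to 0.059 and PDE1C -0.067 to 0.18; in shp105 cells, GUCY1B1 -0.092 to 0.12 and PRKG1 -0.088 to 0.068; and for the difference, GUCY1A2 -0.046 to 0.24, GUCY1B1 -0.11 to 0.11 and PRKG2 -0.16 to 0.0067. The cause of these shifts was not tested. Levels within background limit what GUCY1A1, PRKG2, most PDE1C probe sets and, in shp105 cells, GUCY1B1 can show.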
